A study of Homo sapiens with 6 samples.

Results

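The genes described here encode the initiation, elongation and termination factors of cytoplasmic translation. They were chosen by name, as the protein-coding genes whose symbols begin with EIF1 to EIF6 (the EIF2AK kinases left out) or with EEF1 or EEF2, together with ETF1, GSPT1 and GSPT2. This took 70 of the 58735 genes in the deposited table. Of these, 62 had a mean of at least 1 FPKM (fragments per kilobase of exon, scaled to library size) and were tested, and 8 lay under that level. RNA-seq had been carried out on colorectal cancer stem cells of the HCT116 line (HCT116SCs), sorted as CD44+CD326+ cells and grown as serum-free tumor spheres with EGF, bFGF and B27. The 3 control libraries (NC 1 to 3, genotype WT) came from cells given a negative control siRNA, and the 3 knockdown libraries (siPSCA 1 to 3, genotype PSCA knockdown) from cells given siRNA against PSCA, a GPI-anchored surface protein. Both groups were transfected with a liposomal reagent and harvested after 48 h. All 6 libraries are from 1 cell line, and the sources used here do not say whether replicates were separate cultures, so p-values measure the spread between these libraries, which may be technical. Which of the 3 PSCA siRNA sequences had been used for RNA-seq is not named, and the titles of siPSCA 2 and 3 write the line as HCT117 and HCT118 where their other labels write HCT116.

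Translation begins when eIF2 brings the initiator tRNA to the small ribosomal subunit, while eIF3, eIF1 and eIF1A hold the subunit open for scanning. The cap-binding complex eIF4F (eIF4E, eIF4G and the helicase eIF4A) recruits the mRNA, eIF5 and eIF5B complete start codon selection and subunit joining, and eIF6 keeps the large subunit apart until it is mature. During elongation eEF1A delivers aminoacyl-tRNA, the eEF1B complex recharges eEF1A with GTP, eEF2 moves the ribosome along the mRNA, and eIF5A relieves stalling. Many of these factors, eEF1A and eEF2 among them, are encoded by TOP mRNAs, which open with a C followed by a run of pyrimidines and whose translation depends on mTORC1.

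The targeted gene was close to undetected in every library. PSCA had 4, 12 and 15 reads in NC 1, 2 and 3 and 9, 9 and 7 reads in siPSCA 1, 2 and 3, so the groups overlapped (2-sided exact permutation test on the reads, p = 0.7, where 0.1 is the smallest value possible with 3 against 3), and the knockdown could not be checked at this depth. Reads assigned to genes numbered 16145977 to 16884838 in the NC and 16099716 to 17302219 in the siPSCA libraries. Of the 6 epithelial and sorting markers, EPCAM (CD326) and KRT18 overlapped between the groups at 93.3 to 143 FPKM, CD44 (79.2 to 87.5 FPKM in NC, 59.6 to 62.4 in siPSCA) and CDH1 (28.0 to 32.1 and 18.8 to 19.9) were lower in every siPSCA library, KRT8 was higher (176 to 182 and 202 to 213), and the intestinal brush border gene VIL1 was at most 0.0407 FPKM. Of the 4 markers of other cells, PTPRC was at most 0.0454 and PECAM1 at most 0.153 FPKM, VIM was lower in every siPSCA library (3.34 to 3.86 and 1.68 to 2.15) and COL1A1 higher (3.35 to 5.62 and 5.95 to 6.51); the part of such shifts in the results was not tested. NC 3 stood apart from NC 1 and NC 2 on the first 2 principal components of all tested genes. For several results that rest on it, values without it are given as well.

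About as many translation factors changed as genes at large, and in 5 of the 13 complexes or groups of factors some members rose while others fell. Of the 62 tested members, 31 (50.0%) had an adjusted p under 0.05 by limma, referred to here as called, against 50.7% of all 13796 genes tested. There were 12 members called higher in siPSCA (19.4% of the members, against 26.6% of all genes tested) and 19 called lower (30.6%, against 24.2%). A log2 fold change of at least 0.5 in either direction was reached by 14 of the called members, 7 higher and 7 lower, or 22.6% of those tested where the share of all genes was 23.8%. Under a looser rule of p under 0.05 without adjustment, with the fold limit kept, the count was also 14, against 24.9% of all genes. The NC and siPSCA values did not overlap for 37 members, 15 of them higher and 22 lower in siPSCA (59.7%, against 64.5% of all genes). Without NC 3, 16 members were called higher and 19 lower (56.5% of the members, against 53.8% of all genes in the same fit). The median log2 fold change was -0.05 over the 62 members and 0.01 over all genes, and set against the NC mean the median member stood at -0.0357, -0.0758 and -0.0554 in siPSCA 1, 2 and 3. Fold changes here are differences of log2(FPKM + 1), siPSCA minus NC, which understates the changes of members with low values. In these bulk libraries a change in the cells that express a gene and a change in its RNA per cell cannot be told apart.

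**Figure D1:**
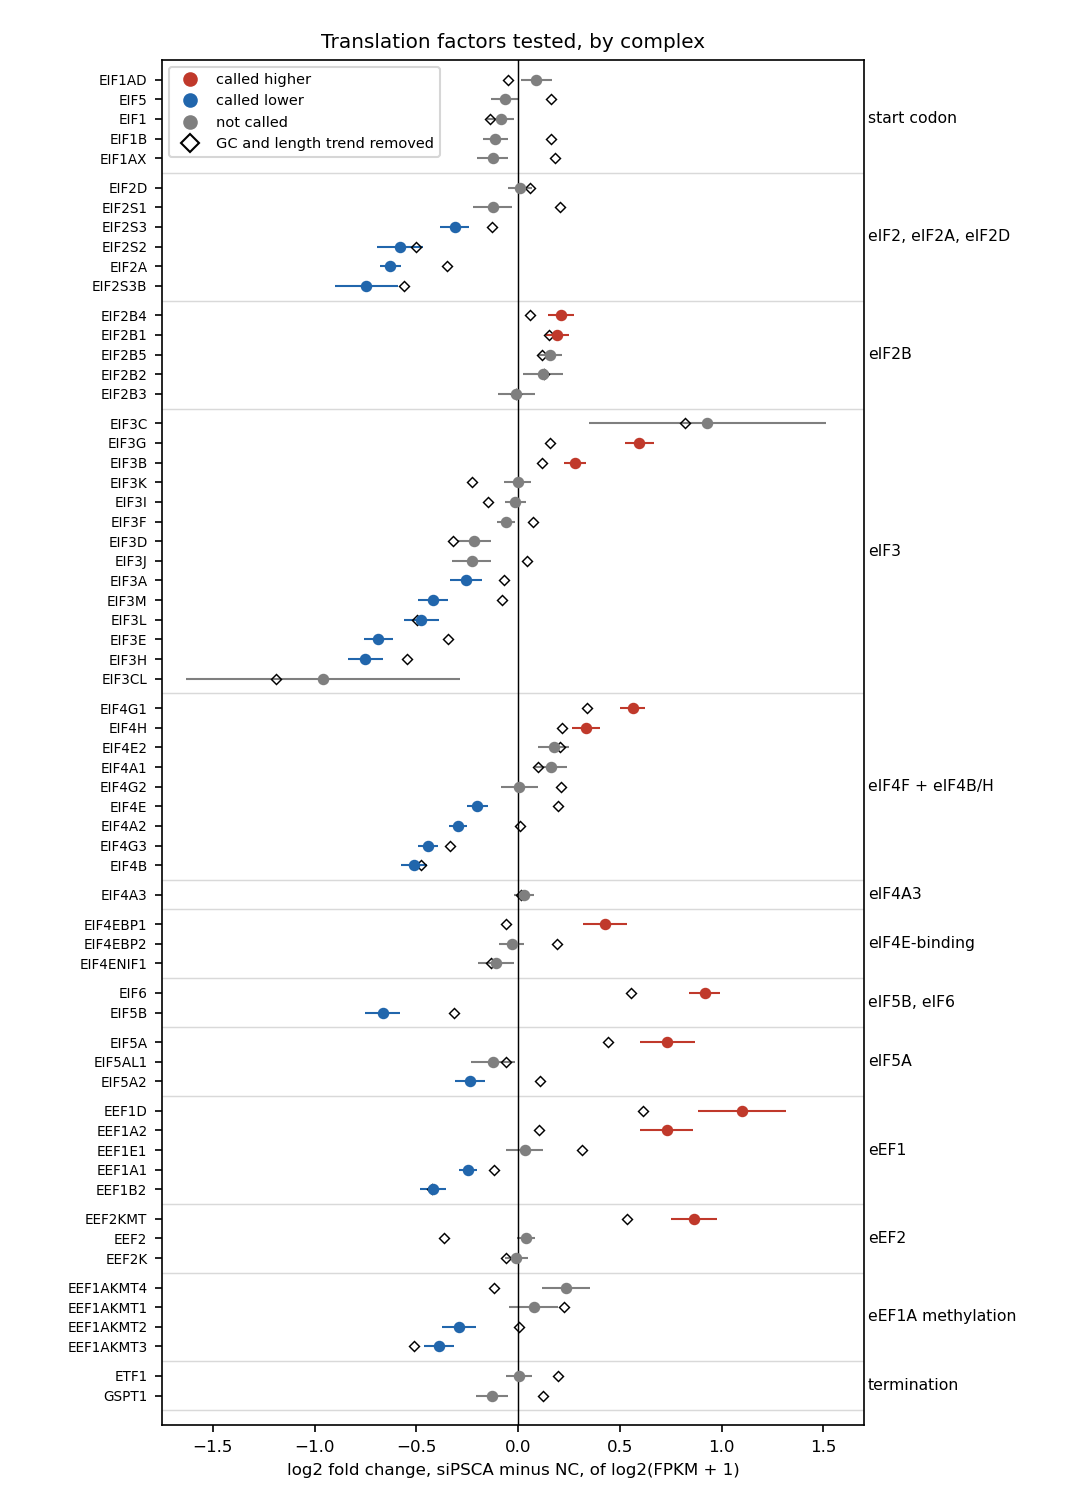
Log2 fold change (siPSCA minus NC, of log2(FPKM + 1)) of the 62 tested factors, grouped by complex; filled points give the value with its SE (3 libraries a group), colours the call, and open diamonds the value after the GC and length trend was removed from each library. The 12 factors called higher and 19 called lower are spread over the complexes, with EEF1D (1.10) and EIF6 (0.92) farthest to the right among the called members and EIF3H and EIF2S3B (both -0.75) farthest to the left.

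The direction of a member's change went with the base composition of its transcripts. Members called higher had a median GC content of 56.8% and members called lower one of 42.8%. Across the 62 members Spearman's rho between GC content and log2 fold change was 0.68, and across all 13792 tested genes with a GC value it was 0.67. These are descriptions across genes that share the same 6 libraries. The difference of NC 3 from the other NC libraries also ran with GC content (rho -0.46 over the members), and without NC 3 the rho of the fold change was 0.65. When the smooth dependence on GC content and length was taken out of each library, 14 members were called higher and 13 lower, against 39.9% of all genes called. Of the 31 calls, 17 were kept in the same direction and 13 were lost. EIF4E was called in the opposite direction, and 9 members not called before were now called. The accounts that follow give values after this removal beside the deposited ones; the part of base composition in the changes was not tested.

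**Figure D2:**
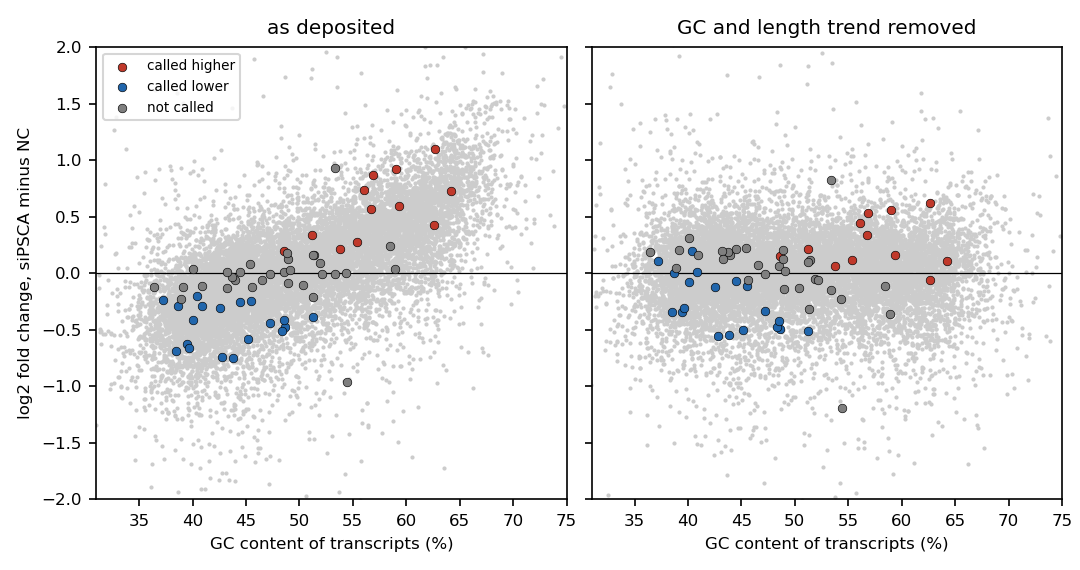
Log2 fold change (siPSCA minus NC) of each of the 62 tested factors against the GC content of its transcripts in percent, with the values as deposited in one panel and after removal of the GC and length trend in the other; colours give the call in the deposited values in both panels, small grey dots are all tested genes, and values beyond 2 in either direction are not drawn. In the deposited values, factors called higher have a median GC content of 56.8% and those called lower one of 42.8%.

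The annotated transcription starts were read to see which factor mRNAs open like a TOP mRNA. RefSeq promoter entries (GRCh38.p14) were found for 57 of the 70 members and 49 of the 62 tested, which is 79.0% of those tested and too few for a comparison of members by their start, so that check is void and the counts only describe the members with an entry. The pattern searched was a C at the start base followed by at least 4 bases of C or T, on the transcribed strand, and 4.07% of all 35116 entries hold it. It was found in 13 tested members, of which 8 were called lower, 0 higher and 5 were not called. The tested members without an entry include EEF1D, EEF1A2, EEF2KMT, EIF3G and EIF4EBP1, all called higher. They also include EIF3H, EIF3E, EIF3L, EIF3A, EIF2S2 and EEF1AKMT3, all called lower, so these counts leave out many called members. Of all tested genes 65.9% have an entry, and among the 701 of these with the run 25.2% were called lower and 28.1% higher. In each 30-base window shown, the first 10 bases lie before the annotated start and capitals mark the run of C and T. EEF1A1, EEF1B2 and EEF2 are shown as the most abundant elongation factors with such a run, and EIF2S3 with EIF2S3B as a pair of near copies.
EEF1A1 (chr6:73521013-73521042, minus strand): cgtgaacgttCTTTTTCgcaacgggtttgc
EEF1B2 (chr2:206159885-206159914, plus strand): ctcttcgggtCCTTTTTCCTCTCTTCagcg
EEF2 (chr19:3985444-3985473, minus strand): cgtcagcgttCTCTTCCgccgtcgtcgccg
EIF2S3 (chrX:24054946-24054975, plus strand): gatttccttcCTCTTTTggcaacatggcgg
EIF2S3B (chr12:10505880-10505909, plus strand): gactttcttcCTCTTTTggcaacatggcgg
EIF2A (chr3:150546777-150546806, plus strand): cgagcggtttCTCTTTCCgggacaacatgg
EIF4B (chr12:53006446-53006475, plus strand): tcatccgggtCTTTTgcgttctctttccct
The other members with a run were EIF4A2 and EIF3M, both called lower, and EIF3D, EIF3F, EIF3K and EIF2D, which were not called. Members called lower without a run were EIF4G3, EIF4E, EIF5B, EIF5A2 and EEF1AKMT2, so the windows shown do not represent calls by start. EIF4H and EIF3B, both called higher and each with 1 annotated start, are shown as entries with no such run.
EIF4H (chr7:74174346-74174375, plus strand): ctcgctcaccctggttcctctcggagcgga
EIF3B (chr7:2354817-2354846, plus strand): tcgcacgcacatggctgggctgtagccgtc
Of the 36 tested members whose entry lacks the run, 7 were called higher, 5 lower and 24 were not called, where 30.3% and 25.4% of all tested genes without it were called higher and lower. After removal of the GC and length trend, 6 of the 13 members with the run were called lower (EIF2A, EIF2S3B, EIF4B, EEF1B2, EIF3D and EEF2) and 0 higher, against 21.8% lower and 20.7% higher among the 701 genes. Members without an entry are left out here too, and windows without a run were taken only from members called higher. No conclusion on start type is drawn from these counts or windows.

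Among the carriers of the initiator tRNA, the tested genes fell or were not called. Of the 6 genes, 4 were called lower, 0 higher and 2 were not called, with a median log2 fold change of -0.45. That is 66.7% called, against 50.7% of all genes tested (24.2% lower). EIF2S3 (chrX:24054716-24077971), the GTP-binding gamma subunit of eIF2 and the most abundant of the set, stood at 91.2, 92.7 and 107 FPKM in NC and 78.9, 74.4 and 79.8 FPKM in siPSCA; here and throughout, 3 values in a row are libraries 1, 2 and 3, means are given ± SD with n = 3 in each group, and gene positions are those of GENCODE 29 on GRCh38. Every siPSCA library lay under every NC library, and the gene fell from 96.8 ± 8.43 to 77.7 ± 2.90 FPKM (log2 fold change -0.31, SE 0.07, adjusted p = 0.014), a call lost without siPSCA 2. EIF2S2 (chr20:34088298-34112332), the beta subunit, was at 64.3, 65.4 and 85.5 FPKM in NC and 48.1, 45.7 and 48.0 FPKM in siPSCA. The 3 siPSCA values were close together while NC 3 was well above the other NC libraries, and the difference (log2 fold change -0.58, SE 0.11, adjusted p = 0.00788) was -0.45 without NC 3. EIF2S1, the alpha subunit whose phosphorylation slows initiation, overlapped between the groups, at 28.0 to 35.9 FPKM in NC and 27.2 to 29.1 FPKM in siPSCA (log2 fold change -0.12, adjusted p = 0.314).

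EIF2A, EIF2D and EIF2S3B lie outside the classical eIF2 trimer. EIF2A (chr3:150546678-150584242), a single-chain protein that can deliver initiator tRNA without being an eIF2 subunit, was at 37.9, 40.1 and 40.7 FPKM in NC and 25.7, 24.2 and 25.7 FPKM in siPSCA. No value of the groups came near the other, and EIF2A fell from 39.5 ± 1.46 to 25.2 ± 0.894 FPKM (log2 fold change -0.63, SE 0.05, adjusted p = 0.000753), the smallest adjusted p of any member. EIF2S3B (chr12:10505602-10523135), a copy of EIF2S3 on another chromosome whose reads may be shared with it, was at 4.25, 5.05 and 6.64 FPKM in NC and 2.39, 2.58 and 3.24 FPKM in siPSCA, again with the groups apart (log2 fold change -0.75, SE 0.16, adjusted p = 0.0101). Without NC 3 its fold change was -0.60. EIF2D, a factor of non-canonical initiation and recycling, was at 4.97 to 5.62 FPKM in all 6 libraries (log2 fold change 0.01). After removal of the GC and length trend EIF2S2, EIF2A and EIF2S3B were still called lower, at -0.50, -0.35 and -0.56, and EIF2S3 was not (-0.13, adjusted p = 0.081).

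eIF2B, the exchange factor that returns eIF2 to its GTP-bound form, showed only small differences. Of its 5 subunits 2 were called higher and 0 lower, with a median log2 fold change of 0.16. That is 40.0% called, against 50.7% of all genes tested (26.6% higher). EIF2B1 (chr12:123620406-123633766), the alpha subunit and the most abundant, was at 12.3, 11.8 and 12.7 FPKM in NC and 13.6, 15.0 and 14.0 FPKM in siPSCA. All siPSCA libraries lay above all NC libraries, by a smaller step than in the eIF2 subunits that fell (log2 fold change 0.19, SE 0.06, adjusted p = 0.0331). EIF2B4 was also called higher (log2 fold change 0.21, SE 0.06, adjusted p = 0.0313), while EIF2B5 did not overlap but was not called (0.16, adjusted p = 0.0662) and EIF2B2 and EIF2B3 overlapped. Both calls depended on single libraries, since EIF2B1 was lost in every fit that left out 1 library except that without NC 3, EIF2B4 in those without NC 1 or any siPSCA library, and both after GC and length removal (0.15 and 0.06, adjusted p = 0.0693 and 0.369).

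None of the tested genes for start codon recognition (5) or for termination (2) was called by limma; 0 of these 7 had an unadjusted p under 0.05, and limma-voom on the recovered reads called 0. EIF1 (chr17:41688885-41692668), which guards against wrong start codons, was the most abundant of the first set at 84.5, 88.5 and 98.5 FPKM in NC and 88.4, 82.7 and 83.9 FPKM in siPSCA, and the groups overlapped (log2 fold change -0.09, SE 0.07, adjusted p = 0.325). EIF5, EIF1AX, EIF1B and EIF1AD, a relative with an eIF1A domain, lay between -0.12 and 0.09 and were not called either. EIF1AY was counted among the members but lay under the minimum, and its level is not given. Of the termination factors, ETF1 (chr5:138506095-138543300), which encodes eRF1, the protein that reads stop codons, was at 50.1, 51.4 and 58.0 FPKM in NC and 53.1, 53.4 and 53.4 FPKM in siPSCA. The siPSCA values fell inside the NC range (log2 fold change 0.01, SE 0.06, adjusted p = 0.941), and GSPT1, the GTPase eRF3a that works with eRF1, overlapped as well (-0.13, adjusted p = 0.221). With the GC and length trend removed, EIF5, EIF1AX and ETF1 were called higher (0.16, 0.18 and 0.20) and EIF1 was not called (-0.14).

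Within eIF3, the scaffold of the scanning ribosome, the subunits did not move as a unit. Of the 14 genes, 5 were called lower, 2 higher and 7 were not called (50.0% called, against 50.7% of all genes). The median log2 fold change was -0.22. The calls in each direction fell in different modules. Among the 7 tested PCI and MPN subunits with a gene of their own (a, e, f, h, k, l and m), which form its octameric core with eIF3c, 5 were called lower and 0 higher (median -0.42), whereas of eIF3b, eIF3g and eIF3i, which form the mobile module, 2 were called higher and 0 lower (median 0.28). The GC content ran from 38.5% to 54.4% in the first of these groups and from 53.4% to 59.3% in the latter, so the ranges barely met.

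EIF3H (chr8:116642130-116766925), an MPN subunit, was at 47.8, 49.5 and 59.4 FPKM in NC and 30.0, 30.6 and 30.8 FPKM in siPSCA. Each siPSCA library had well under the lowest NC value, and the gene fell from 52.2 ± 6.26 to 30.5 ± 0.415 FPKM (log2 fold change -0.75, SE 0.09, adjusted p = 0.00161). EIF3E (chr8:108201216-108435333), a PCI subunit, was at 98.9, 99.7 and 114 FPKM in NC and 62.9, 63.0 and 67.0 FPKM in siPSCA. It too was separated by a wide gap and fell from 104 ± 8.54 to 64.3 ± 2.33 FPKM (log2 fold change -0.69, SE 0.07, adjusted p = 0.00122). EIF3A (chr10:119033670-119080823), the largest subunit and the most abundant eIF3 transcript, stood at 106, 108 and 126 FPKM in NC and 90.9, 94.8 and 97.3 FPKM in siPSCA. Its groups were closer to each other than those of EIF3H and EIF3E (log2 fold change -0.26, SE 0.08, adjusted p = 0.0349), and the call was lost without NC 2 or any 1 of the siPSCA libraries. EIF3L and EIF3M were called lower at -0.48 and -0.42, although 51.8% of the exonic bases of EIF3L overlap other annotated genes, and EIF3K and EIF3F were not called (-0.00 and -0.06).

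In the mobile module, EIF3G (chr19:10115017-10119918), an RNA-binding subunit that touches scanning mRNA, was at 19.6, 21.9 and 22.9 FPKM in NC and 34.7, 32.0 and 32.1 FPKM in siPSCA. Every siPSCA library was above every NC library by a wide margin, a rise from 21.5 ± 1.67 to 32.9 ± 1.51 FPKM (log2 fold change 0.60, SE 0.07, adjusted p = 0.00174). EIF3B, the scaffold of the module, rose less (log2 fold change 0.28, SE 0.05, adjusted p = 0.00745), and EIF3I overlapped at 95.1 to 104 FPKM (-0.01). The ratio of EIF3G to EIF3H FPKM in the same library was therefore 0.413 ± 0.0279 in NC and 1.08 ± 0.0642 in siPSCA (mean ± SD, n = 3 and 3, 2-sided exact permutation p = 0.1, the smallest possible). Because EIF3G was higher and EIF3H lower in every siPSCA library, the ratio had to separate, and this p adds no support. EIF3D, which can bind the cap itself, and EIF3J, a loosely attached subunit, did not overlap between the groups but were not called (-0.22 and -0.23). After GC and length removal EIF3H, EIF3E and EIF3L were still called lower (-0.55, -0.34 and -0.50) and EIF3D joined them (-0.32), while EIF3A, EIF3M, EIF3G and EIF3B were no longer called (-0.07, -0.08, 0.16 and 0.12).

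EIF3C and EIF3CL, near-identical copies on chromosome 16 that both encode eIF3c, could not be compared. EIF3C was at 0.707, 0.938 and 2.57 FPKM in NC and 1.60, 9.60 and 1.96 FPKM in siPSCA, and EIF3CL was at 12.9, 1.17 and 1.78 FPKM in NC and 1.28, 1.09 and 1.39 FPKM in siPSCA. EIF3CL was high in NC 1 alone and EIF3C in siPSCA 2 alone. Their summed reads were 752, 177 and 404 in NC and 256, 1251 and 327 in siPSCA, so the sum also varied between replicates far more than any other eIF3 subunit, and how the counting had shared reads between the copies is not given in the sources used here. Neither was called (adjusted p = 0.223 and 0.272).

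**Figure D3:**
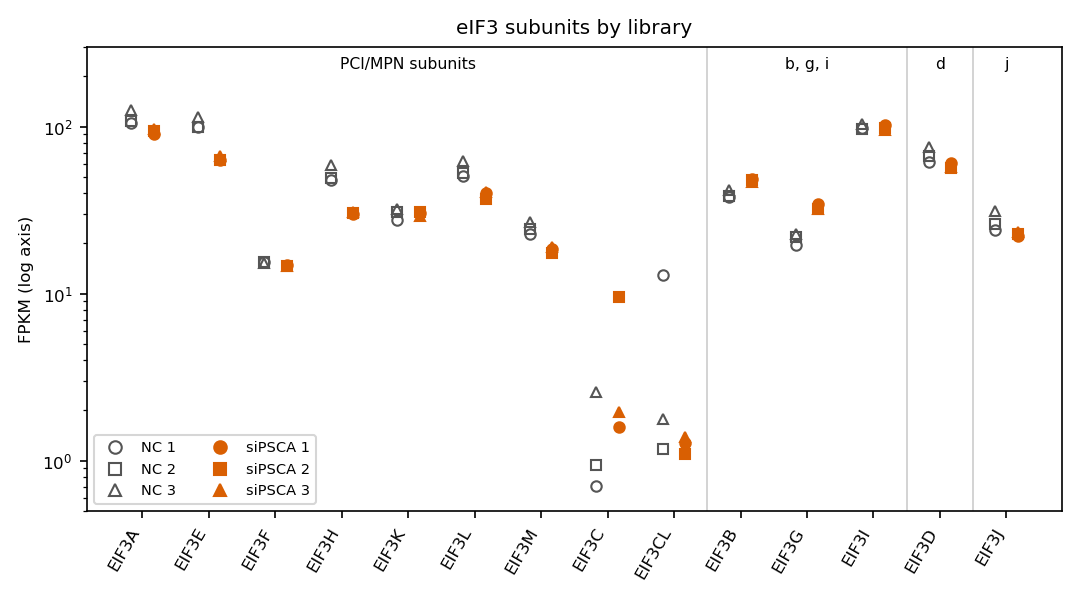
FPKM of each eIF3 gene in the 6 libraries on a log axis, with open symbols for NC and filled symbols for siPSCA. EIF3H and EIF3E lie lower in all siPSCA libraries and EIF3G higher, while EIF3CL has a single high value in NC 1 (12.9) and EIF3C in siPSCA 2 (9.60).

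The cap-binding complex and its helicase cofactors were mixed, with 2 of 9 tested genes called higher and 4 lower (median 0.01). That is 66.7% called, against 50.7% of all genes. EIF4G1 (chr3:184314495-184335358), the main scaffold that joins cap, helicase and eIF3, was at 65.4, 66.3 and 74.3 FPKM in NC and 104, 102 and 99.3 FPKM in siPSCA. The groups were far apart, and EIF4G1 rose from 68.6 ± 4.90 to 102 ± 2.29 FPKM (log2 fold change 0.56, SE 0.06, adjusted p = 0.00147). Its paralog EIF4G3 fell, from 12.3 to 13.1 FPKM in NC to 8.78 to 9.19 FPKM in siPSCA (log2 fold change -0.44, SE 0.05, adjusted p = 0.00158). The ratio of EIF4G1 to EIF4G3 was 5.25, 5.38 and 5.67 in NC and 11.8, 11.1 and 10.9 in siPSCA (exact permutation p = 0.1, the smallest possible). That separation was already given by the opposite moves of EIF4G1 and EIF4G3. EIF4G2 (chr11:10797050-10809110), the relative without the region that binds eIF4E, had the highest mean FPKM of the set. It was at 132, 136 and 166 FPKM in NC and 145, 141 and 148 FPKM in siPSCA. Its siPSCA values lay within the NC range (log2 fold change 0.01, SE 0.09, adjusted p = 0.963), although without NC 3, its highest NC library, it was called higher (0.11). With the GC and length trend removed, EIF4G1 and EIF4G3 held their calls (0.34 and -0.33) and EIF4G2 was called higher (0.21, adjusted p = 0.0435).

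Of the RNA-binding cofactors that stimulate eIF4A, one fell and the other rose. EIF4B (chr12:53006158-53042209) was at 137, 138 and 157 FPKM in NC and 102, 99.3 and 101 FPKM in siPSCA. The siPSCA libraries were close together and under every NC library, and EIF4B fell from 144 ± 11.5 to 101 ± 1.29 FPKM (log2 fold change -0.51, SE 0.06, adjusted p = 0.00206). EIF4H was at 89.0 to 102 FPKM in NC and 113 to 125 FPKM in siPSCA and rose (log2 fold change 0.34, SE 0.07, adjusted p = 0.00925). Both kept their direction and call without the GC and length trend (-0.48 and 0.21). Of the helicases, EIF4A2 fell (log2 fold change -0.29, SE 0.04, adjusted p = 0.00343), a call not kept after that removal (0.01), and EIF4A1 was at only 2.26 to 2.97 FPKM with 48.6% of its exonic bases shared with other genes on its strand. EIF4A3 (chr17:80135214-80147183), the related helicase of the exon junction complex, was at 42.7, 45.0 and 42.2 FPKM in NC and 43.7, 45.4 and 43.5 FPKM in siPSCA with the groups overlapping (log2 fold change 0.03, SE 0.05, adjusted p = 0.644), and its value after removal was 0.01.

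In the deposited values the gene for the cap-binding protein eIF4E was called lower and that of 1 of its repressors higher. EIF4E was at 7.29, 7.25 and 7.52 FPKM in NC and 6.37, 6.0 and 6.44 FPKM in siPSCA (log2 fold change -0.20, SE 0.05, adjusted p = 0.0203), a call lost without NC 2, siPSCA 1 or siPSCA 2. EIF4EBP1 (chr8:38030341-38060365), the mTORC1-controlled repressor that masks eIF4E, was at 26.2, 26.5 and 23.3 FPKM in NC and 36.4, 38.1 and 29.3 FPKM in siPSCA. Its groups did not overlap, but siPSCA 3 was nearer to NC than the others (log2 fold change 0.43, SE 0.11, adjusted p = 0.0193), and the call was lost without siPSCA 1 or siPSCA 2. The ratio of EIF4EBP1 to EIF4E was 3.45 ± 0.308 in NC and 5.53 ± 0.914 in siPSCA (exact permutation p = 0.1, the smallest possible), which the separate values of both genes fixed in advance. Once the GC and length trend was removed, neither held: EIF4E was called higher (0.20, adjusted p = 0.0247) and EIF4EBP1 was not called (-0.06, adjusted p = 0.672). The GC contents of these genes were 40.4% and 62.6%. EIF4EBP2 and EIF4ENIF1, which moves eIF4E into the nucleus, overlapped between the groups (-0.03 and -0.11), as did EIF4E2, a homolog linked to repression (0.17); EIF4EBP2 and EIF4E2 were called higher after that removal (0.19 and 0.21).

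EIF6 and EIF5B, which act on the joining of the subunits from opposite sides, moved in opposite directions. EIF6 (chr20:35278911-35284985), which keeps the large subunit from joining, was at 27.1, 28.1 and 25.8 FPKM in NC and 55.6, 53.6 and 46.7 FPKM in siPSCA. The lowest siPSCA library was far above the highest NC library, and EIF6 rose from 27.0 ± 1.11 to 52.0 ± 4.64 FPKM (log2 fold change 0.92, SE 0.08, adjusted p = 0.000755). EIF5B (chr2:99337353-99401326), the GTPase that promotes joining, was at 27.1, 27.6 and 30.1 FPKM in NC and 15.4, 18.0 and 19.0 FPKM in siPSCA. Every siPSCA library lay under every NC library, and EIF5B fell from 28.3 ± 1.62 to 17.5 ± 1.85 FPKM (log2 fold change -0.67, SE 0.09, adjusted p = 0.00226). The ratio of EIF6 to EIF5B was 1.00, 1.02 and 0.858 in NC and 3.60, 2.97 and 2.46 in siPSCA (exact permutation p = 0.1, the smallest possible). With EIF6 higher and EIF5B lower in every siPSCA library, no other p could result. The GC contents were 59.0% and 39.6%, and after removal of the trend both were still called, at 0.55 and -0.31. EIF6 shares 17.4% of its exonic bases with an annotated gene on its strand, and EIF5B 10.8% with REV1 on the other strand.

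EIF5A (chr17:7306999-7312463), the hypusine-bearing factor that helps ribosomes through difficult peptide bonds, was at 143, 145 and 103 FPKM in NC and 223, 216 and 206 FPKM in siPSCA. NC 3 was lower than the other NC libraries, and all siPSCA libraries were higher than all of NC, a rise from 130.3 ± 23.7 to 215 ± 8.17 FPKM (log2 fold change 0.73, SE 0.14, adjusted p = 0.00649) that was 0.57 without NC 3. After GC and length removal the rise was 0.44 (adjusted p = 0.0107). The paralog EIF5A2 was at 5.11 to 5.95 FPKM in NC and 4.21 to 4.62 FPKM in siPSCA (log2 fold change -0.23, SE 0.07, adjusted p = 0.0374), a call lost without NC 2 or any 1 siPSCA library and after trend removal (0.11). EIF5AL1, an EIF5A-like copy, overlapped (-0.12). EIF5A thus made up 92.1% ± 2.48 of the summed FPKM of the 3 genes in NC and 95.9% ± 0.229 in siPSCA (exact permutation p = 0.1, the smallest possible). This share is built from the values already given for EIF5A, so its p adds no support.

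The elongation factor eEF1A is encoded by a pair of genes that moved apart. EEF1A1 (chr6:73515750-73523797), the general form and the most abundant of all 70 members, was at 1552, 1572 and 1618 FPKM in NC and 1356, 1316 and 1329.8 FPKM in siPSCA. The groups did not overlap, and the fall was small (log2 fold change -0.24, SE 0.04, adjusted p = 0.00614), a call lost when genes of all levels were fitted together. EEF1A2 (chr20:63488012-63499322), the form typical of muscle and neurons that is also seen in tumors, was at 58.6, 62.2 and 43.7 FPKM in NC and 91.7, 89.7 and 90.4 FPKM in siPSCA. The siPSCA libraries were nearly equal and above all NC libraries, a rise from 54.9 ± 9.79 to 90.6 ± 1.00 FPKM (log2 fold change 0.73, SE 0.13, adjusted p = 0.00563), or 0.58 without NC 3. EEF1A2 made up 3.64%, 3.81% and 2.63% of the summed FPKM of the pair in NC and 6.33%, 6.38% and 6.37% in siPSCA (exact permutation p = 0.1, the smallest possible), a p that the opposite moves of the pair fixed in advance. Neither gene was called after GC and length removal (-0.12 and 0.10, adjusted p = 0.12 and 0.158), with GC contents of 45.5% and 64.2%. EEF1A1 alone made up 34.5% ± 0.288 of the summed FPKM of the tested members in NC and 31.2% ± 0.246 in siPSCA, and that sum was 4576 ± 134 FPKM in NC and 4275 ± 47.4 FPKM in siPSCA (both exact permutation p = 0.1). EEF1A1 is itself the largest part of that sum, so neither p is support apart from its fall. The sum without EEF1A1 was not tested.

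The exchange factors of eEF1A also differed among themselves. EEF1D (chr8:143579697-143599541), the delta subunit of eEF1B, was at 12.4, 11.7 and 6.52 FPKM in NC and 22.4, 23.1 and 21.3 FPKM in siPSCA. NC 3 was the lowest library, and the rise from 10.2 ± 3.20 to 22.3 ± 0.941 FPKM (log2 fold change 1.10, SE 0.22, adjusted p = 0.0082) had the largest fold change of the called members with all libraries. Without NC 3 it was 0.83, under the 0.89 of EIF6 in that fit. After GC and length removal EEF1D stood at 0.62 (adjusted p = 0.00497). Other annotated genes on the opposite strand share 34.0% of the exonic bases of EEF1D, and whether counting used strand is not stated. EEF1B2, the catalytic beta subunit whose start has the longest run of C and T among the windows shown, was at 185 to 216 FPKM in NC and 146 to 151 FPKM in siPSCA and fell (log2 fold change -0.42, SE 0.06, adjusted p = 0.00372), by the same amount after trend removal (-0.42). EEF1E1, a scaffold protein of the tRNA synthetase complex, was not called (0.03) except after that removal (0.31, adjusted p = 0.0272). EEF1G, the gamma subunit, is listed at 0 in every library; 99.9% of its exonic bases also belong to another annotated gene on its strand, AP002990.1, whose mean was 0.304 FPKM, and no value is drawn from either.

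**Figure D4:**
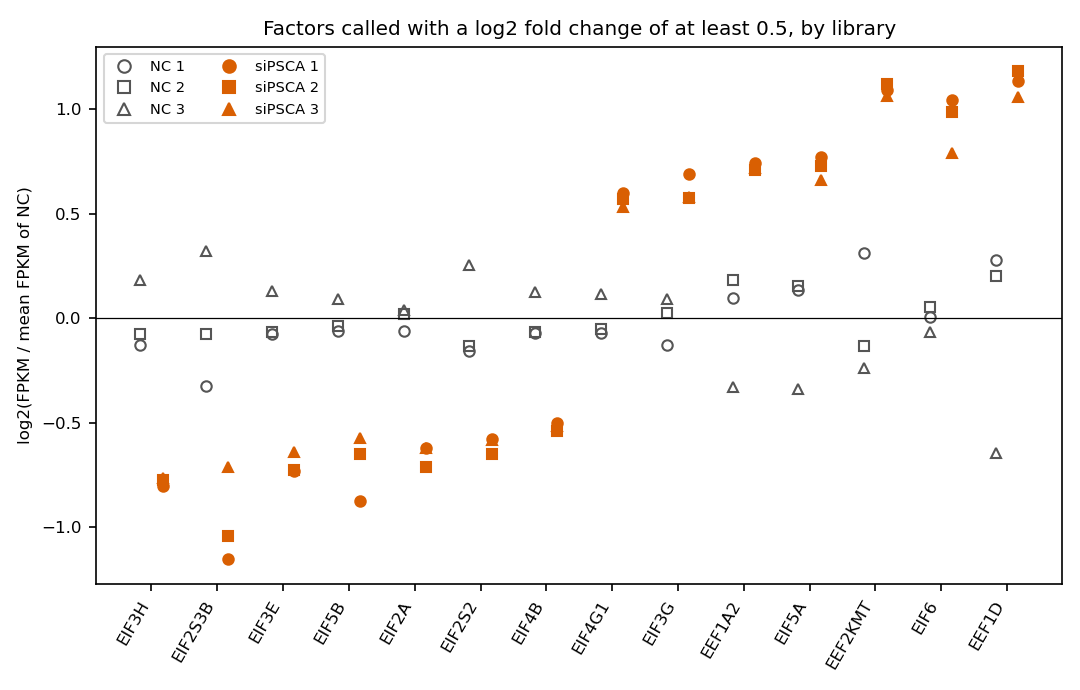
Log2 of the ratio of FPKM in each library to the NC mean, for the called factors with a log2 fold change of at least 0.5 in either direction; open symbols are NC and filled symbols siPSCA libraries. The 7 factors that rose and the 7 that fell each have their siPSCA libraries on 1 side of all NC libraries, with EEF1D widest in NC (6.52 to 12.4 FPKM).

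EEF2 (chr19:3976056-3985469), the translocase and the second most abundant member, was at 623, 639 and 606 FPKM in NC and 643, 645 and 630.2 FPKM in siPSCA. The groups overlapped, with a difference of 0.04 (adjusted p = 0.495). With a GC content of 58.9%, it was called lower once the GC and length trend was removed (-0.37, adjusted p = 0.0101), so its direction depends on that choice. EEF2K, the kinase that inactivates eEF2, was at 6.84 to 7.43 FPKM in all libraries and not called (-0.01). EEF2KMT (chr16:5084304-5097808), the methyltransferase of an eEF2 lysine, was at 3.10, 2.28 and 2.12 FPKM in NC and 5.33, 5.43 and 5.21 FPKM in siPSCA. Its groups were widely separated, and it rose from 2.50 ± 0.529 to 5.32 ± 0.111 FPKM (log2 fold change 0.86, SE 0.11, adjusted p = 0.00214), with 0.53 after trend removal; 29.3% of its exonic bases lie opposite ALG1. The methyltransferases of eEF1A were low. EEF1AKMT1 (chr13:20728731-20773958), the most abundant of them over the 6 libraries, was at 3.69, 2.83 and 3.16 FPKM in NC and 4.11, 2.98 and 3.32 FPKM in siPSCA, overlapping between the groups (log2 fold change 0.08, SE 0.12, adjusted p = 0.617), with 0.22 after trend removal. EEF1AKMT3 and EEF1AKMT2 were called lower (-0.39 and -0.29) and EEF1AKMT4 was not called (0.24); the call of EEF1AKMT2 was lost without NC 1, NC 2, siPSCA 1 or siPSCA 3. After trend removal EEF1AKMT3 was still called (-0.51), whereas EEF1AKMT2 stood at 0.00 and EEF1AKMT4 at -0.12.

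Members under the minimum of 1 FPKM were not tested. EIF4E3, a cap-binding homolog, had 150, 154 and 145 reads in NC and 107, 127 and 148 in siPSCA. EIF4E1B, known from oocytes, had 6, 8 and 2 reads in NC and 17, 6 and 7 in siPSCA, and the repressor EIF4EBP3 had 6, 12 and 1 reads in NC and 6, 3 and 6 in siPSCA. The groups overlapped in FPKM for EIF4E1B and EIF4EBP3, and for EIF4E3 the siPSCA values (0.587 to 0.754) lay under the NC values (0.781 to 0.828). GSPT2, the retrogene form of eRF3, and the read-through genes EEF1E1-BLOC1S5 and EEF1AKMT4-ECE2 are listed at 0 in all 6 libraries, and the exons of both read-through genes lie wholly within other annotated genes.

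Genes that regulate these factors but fall outside the naming rule were examined as 7 lists holding 66 genes. Of the 65 tested, 40 (61.5%, against 50.7% of all genes) were called, 21 higher and 19 lower, with a median log2 fold change of -0.07. After GC and length removal 27 (41.5%) were called against 39.9% of all genes, 19 (29.2%) without siPSCA 1 against 33.5%, and 24 (36.9%) without siPSCA 2 against 34.3%, so their share stood above, near or below that of all genes depending on the fit. In the list of mTORC1 and its translation arm, 8 of 14 genes were called higher and 3 lower (median 0.30). That is 78.6% called, where 26.6% of all genes were called higher and 24.2% lower. The list counts RPS6KA1 (called higher) and RPS6KA3 (called lower), which are RSK kinases activated by ERK and not mTORC1 components. AKT1S1, an inhibitory mTORC1 component, was at 8.97, 8.98 and 7.48 FPKM in NC and 18.5, 17.7 and 17.1 FPKM in siPSCA, with the groups far apart (log2 fold change 0.99, SE 0.08, adjusted p = 0.000721). MLST8 and RPTOR, the constant partner of mTOR and the substrate-recruiting subunit, were also higher in every siPSCA library (0.68 and 0.62, adjusted p = 0.015 and 0.00339). After GC and length removal AKT1S1 and RPTOR were still called (0.45 and 0.34) and MLST8 was not (0.09). MLST8 also lost its call without siPSCA 1 or siPSCA 2, and stood at 0.51 without NC 3. The 3 genes called lower were RPS6KA3, DEPTOR and RPS6KB1 (-0.61, -0.41 and -0.34, adjusted p = 0.00101, 0.0153 and 0.0126). RPS6KA3 kept its call in all 6 fits without 1 library. DEPTOR lost its call without siPSCA 1 or siPSCA 3, and RPS6KB1 without siPSCA 1. After GC and length removal RPS6KA3 and DEPTOR were still called lower (-0.24 and -0.47) and RPS6KB1 was not called (-0.02).

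In the list of 7 genes that holds the eIF2 alpha kinases, phosphatase subunits and IMPACT, 4 were called lower and 1 higher (median -0.27). EIF2AK3, the PERK kinase of endoplasmic reticulum stress, was at 6.22, 6.37 and 6.43 FPKM in NC and 3.86, 3.75 and 4.24 FPKM in siPSCA and fell (log2 fold change -0.57, SE 0.06, adjusted p = 0.00136), with -0.32 after trend removal. Among the 15 kinases, inhibitors and cap-binding partners of the eIF4 factors, 3 were called higher and 6 lower (median -0.09). PDCD4, an inhibitor of the eIF4A helicase, fell (log2 fold change -0.63, SE 0.10, adjusted p = 0.00383; -0.35 after trend removal), and ZNF598, a sensor of collided ribosomes, and GIGYF1, a partner of eIF4E2, rose (0.93 and 0.73, adjusted p = 0.011 and 0.0301). ZNF598 and GIGYF1 were not called after GC and length removal (0.21 and 0.25), and GIGYF1 was lost without any 1 siPSCA library. Without NC 3 ZNF598 and GIGYF1 stood at 0.72 and 0.47. PABPC1, the poly(A)-binding protein that contacts eIF4G, was chosen after its values were seen. It was at 427, 451 and 535 FPKM in NC and 312, 319 and 339 FPKM in siPSCA, all siPSCA libraries under all NC libraries (log2 fold change -0.54, SE 0.09, adjusted p = 0.00504), with -0.56 after trend removal. Its paralog PABPC4 went the other way and was called higher (log2 fold change 0.19, SE 0.04, adjusted p = 0.0113), also after trend removal (0.16).

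The enzymes that modify eIF5A and eEF2 numbered 8 tested, with 4 called higher and 1 lower (median 0.19). DOHH, the hydroxylase that completes hypusine on eIF5A, was at 6.33, 6.73 and 2.06 FPKM in NC and 16.0, 14.9 and 12.5 FPKM in siPSCA. NC 3 was far under the other NC libraries, and the rise (log2 fold change 1.47, SE 0.36, adjusted p = 0.0166) was 1.03 without NC 3 and was not called without siPSCA 1 or siPSCA 2. DPH2, a subunit of the enzyme that begins diphthamide on eEF2, rose (log2 fold change 0.77, SE 0.15, adjusted p = 0.00737), by 0.61 without NC 3. Both DOHH and DPH2 were still called after GC and length removal (0.66 and 0.37). DHPS, the enzyme of the step before DOHH, was at 1.28 to 1.87 FPKM and not called (-0.00). In the selenocysteine list 2 of 6 were called higher and 1 lower, with EEFSEC, the elongation factor for selenocysteine, at 0.50 (adjusted p = 0.00451) and 0.04 after trend removal, where it was not called. Of 10 mitochondrial factors 2 were called higher and 2 lower, and of 5 genes of reinitiation, recycling and rescue 1 was called higher and 2 lower. After GC and length removal the mitochondrial list had 2 higher and 0 lower, the reinitiation list 3 higher and 0 lower (median from -0.18 to 0.15), and the selenocysteine list 0 called. The counts of higher and lower genes were then 5 and 3 for the mTORC1 list (median 0.08) and 2 and 3 for the eIF2 alpha list (median -0.08). They were 2 and 4 for the eIF4 list (median 0.03) and 3 and 0 for the enzymes of eIF5A and eEF2 (median 0.06).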

How the data were processed

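Paired-end Illumina RNA-seq libraries had been built from TRIzol RNA with the NEBNext Ultra RNA kit from 3 NC and 3 siPSCA samples of HCT116SCs. The deposited file is a table made by the authors with an FPKM value per library for each of 58735 genes, whose identifiers, positions and summed exon lengths equal those of GENCODE 29 on GRCh38; the aligner, the counter and any use of strand are not given in the sources used here. FPKM times exon length gave whole reads for the values (tolerance 0.01), so the depth is known: 1 read on a gene of 1 kilobase equals 0.0549 to 0.0595 FPKM.

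The 13796 genes whose FPKM averaged 1 or more were tested with limma 3.58.1 (R 4.3.3; lmFit, then eBayes with a trend) on log2(FPKM + 1), group as the only term, 2-sided, with Benjamini-Hochberg adjustment over all of them and 0.05 as the threshold. Single ratios were tested with exact permutation tests (scipy 1.17.1). GC content was taken from the GENCODE 29 transcripts, and its trend and that of length were removed from each library with natural splines (5 degrees of freedom). Promoter sequences are those of RefSeq (GRCh38.p14). The fit was also run on simulated reads with the same extra spread for every gene, no GC trend and no outlying library. These data have a GC trend and NC 3 apart, so that run does not vouch for the calls. Described with values per library were the called members with a log2 fold change of at least 0.5 either way and the most abundant member of each complex. Of each list of regulators, up to 3 genes past the same limits were named. The mTORC1 genes called lower, and other regulators outside this rule, were added with their values known. Members and lists were chosen with earlier results of these data known, so no p-value is adjusted over a list alone and no list was tested as a set. The alternatives tried were another pseudocount, no minimum, median-ratio scaling, limma-voom on the recovered reads, GC and length removal, a replicate block, leaving out each library, and an unadjusted threshold with a fold limit.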

Additional observations from a re-analysis of the deposited data

How the results depend on the processing

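All 31 calls among the members were kept with a pseudocount of 0.1, with median-ratio scaling and with limma-voom, and 24 were kept with no minimum FPKM, where EIF2B1, EIF2B4, EIF3A, EIF4EBP1, EIF5A2, EEF1A1 and EEF1AKMT2 were lost. The 6 fits without 1 library each gave 9 to 16 members higher and 15 to 20 lower, and 23 of the 31 calls were kept in every one of them. The unadjusted p under 0.05 with a log2 fold change over 0.5 gave 7 members higher, 7 lower, 13 regulators and 3434 genes in all. Leaving out 1 library gave 19 to 42 regulators and 4627 to 7425 genes in all, the lowest counts without siPSCA 1. The median over the members was -0.0221 with limma-voom and 0.0278 after GC and length removal, and ran from -0.0659 without NC 1 to -0.0014 without NC 3 over the fits without 1 library. After GC and length removal 16 of the 62 members changed sign, 5 of them called in the deposited values (EIF4A2, EIF4E, EIF4EBP1, EIF5A2 and EEF1AKMT2); median-ratio scaling changed 3, limma-voom 4 and leaving out 1 library 0 to 7, none of them called. Among the members chosen by fold or abundance, signs changed after that removal for EIF4EBP1 (-0.0604) and EEF2 (-0.365), with median-ratio scaling for EIF4G2 (-0.0119) and ETF1 (-0.0109), and when 1 library was left out for EIF4G2 (-0.0555 without NC 1 to 0.106 without NC 3), ETF1 (-0.0335 to 0.0693) and EEF1AKMT1 (-0.0224 without siPSCA 1 to 0.16); the cause was not tested.

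Replicate numbers are shared by the groups, but the correlations of same-numbered libraries' deviations from their group means were 0.0955, 0.0132 and 0.134, so the libraries were taken to share only a number. With the replicate block 6725 genes, 11 members higher and 18 lower were called, and EIF2B1 and EIF5A2 were the members lost. Depth limits the members under 1 FPKM, some of which had under 10 reads in a library.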
